A study of Mus musculus with 6 samples.

Results

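The collagen and laminin genes of the mouse testis were examined in whole-testis RNA from 6 mice. The members were all genes of the deposited table whose symbol is Col, a number, a and a number, or Lam, one of the letters a, b or c, and a single digit. This gave 55 genes, 44 of them collagens and 11 laminins, of 23361 genes in the table. All 6 animals were C57BL/6J mice aged about 120 days, and both copies of their Ret gene carried V805A. Ret is the kinase part of the receptor for GDNF, a growth factor that Sertoli cells and myoid cells make for spermatogonial stem cells. The control group was 3 mice injected daily for 9 days with vehicle, a mixture of saline, cremophor and ethanol. The inhibitor group was 3 mice injected on the same schedule, at the same 10 microliters per gram of body weight, with 1NaPP1-HCl dissolved in that vehicle. Testes were taken on day 14, after 5 days without injections. No mice with an unaltered Ret and no mice without injections are among these samples, so effects of the compound on other kinases cannot be told apart from effects on Ret.

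Collagens are trimers of chains that wind into a triple helix, in which each triplet of residues starts with glycine. Fibrillar collagens form the interstitial fibres, type IV collagen forms the sheet-like network of basement membranes, and further families sit on fibrils, in filaments or in the cell membrane. Laminins are cross-shaped trimers of an alpha, a beta and a gamma chain, and they form the other network of the basement membrane. In the testis a basement membrane made by Sertoli cells and peritubular myoid cells surrounds each seminiferous tubule, and the spermatogonia that respond to GDNF rest on it.

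Coding sequences are shown for 4 chains to make visible what separates the families. For the 3 collagens, the first 18 codons of the longest run of glycine triplets are printed, with the glycine codons (GGN) in capitals. For Lamb2, the most abundant laminin chain, the 18 codons richest in cysteine are printed, with the cysteine codons (TGT or TGC) in capitals. All are read from GENCODE M21 transcripts on GRCm38.
Col1a1 (chromosome 11, from codon 168): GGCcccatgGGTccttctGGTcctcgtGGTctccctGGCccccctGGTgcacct
Col22a1 (chromosome 15, from codon 1107): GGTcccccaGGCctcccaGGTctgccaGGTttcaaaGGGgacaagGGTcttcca
Col4a1 (chromosome 8, from codon 43): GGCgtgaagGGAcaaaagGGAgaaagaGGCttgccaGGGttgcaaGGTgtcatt
Lamb2 (chromosome 9, from codon 1051): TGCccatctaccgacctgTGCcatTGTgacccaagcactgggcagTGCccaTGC
Each collagen stretch has 6 glycine codons, one at the start of each triplet, and the Lamb2 stretch has 5 cysteine codons, as in the EGF-like repeats of laminins. The length of the unbroken repeat set the fibrillar chains apart from the other collagens, and the collagens apart from the laminins. In the 11 fibrillar chains the longest run was between 216 and 344 triplets, while in the 6 type IV chains it was between 39 and 66, because the type IV repeat is interrupted many times. The 9 fibril-associated chains had longest runs of 32 to 113 triplets, which overlap the type IV range. The ranges of type VI (37 to 87) and transmembrane chains (40 to 55) overlap it too. The laminins had none longer than 3. Glycine codons made up a median of 24.18% of collagen codons, 8.17% of laminin codons and 6.03% of codons over 21562 genes. The median GC content of the coding sequence was 58.9% in collagens and 54.6% in laminins, against 51.9% over those genes.

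Fibril-associated chains had the highest collagen levels in the testis. Levels that compare genes are given as FPKM (fragments scaled to transcript length and library size, as deposited), since this scale allows for length. Col22a1, a fibril-associated chain known from tissue junctions such as that of muscle and tendon, had the highest level, with 44.4, 44.6 and 42.7 FPKM in controls 1 to 3 and 40.5, 41.5 and 41.5 FPKM in inhibitor mice 1 to 3. It alone made up between 24.78% and 28.94% of the summed collagen FPKM of a library. Col16a1, a fibril-associated chain found near basement membranes and fibrils, followed with a mean of 23.8 FPKM over the 6 libraries, then Col20a1, of the same family, with 13.2. Col2a1, the fibrillar chain best known from cartilage, had a mean of 9.67 FPKM and stood above the fibrillar chains of ordinary connective tissue, Col1a2 (5.95), Col3a1 (4.22) and Col1a1 (2.65). The order of Col1a2, Col18a1 (5.78) and Col9a3 (5.20) is not firm, since their ranges over the libraries overlap. Among the basement membrane chains Col4a1 and Col4a2 had means of 3.88 and 3.71 FPKM, Col4a4 2.48, Col4a3 1.36, Col4a5 1.12 and Col4a6 0.655.

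Lamb2, a beta chain of mature basement membranes, led the laminins with a mean of 7.04 FPKM. It was followed by the gamma chain Lamc3 (4.85), the alpha chain Lama2 (3.03), and the beta chains Lamb1 (2.66) and Lamb3 (2.39). Lamc3 stood above the widespread gamma chain Lamc1 in every library, at 2.68 to 3.73 times its FPKM. Lama2, known from muscle basement membranes, was the most abundant alpha chain, ahead of Lama1 (1.59), Lama5 (0.875), Lama4 (0.626) and Lama3 (0.262). In all, 3 of the 55 genes had a mean of at least 10 FPKM, 5 lay between 5 and 10, 25 between 1 and 5, 20 between 0.1 and 1, and 2 below 0.1. Those 2, Col9a2 and Col10a1, did not pass the filter on low counts and were not tested. Col10a1, the collagen of growth-plate cartilage, had a mean of 0.333 fragments per library.

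**Figure D1:**
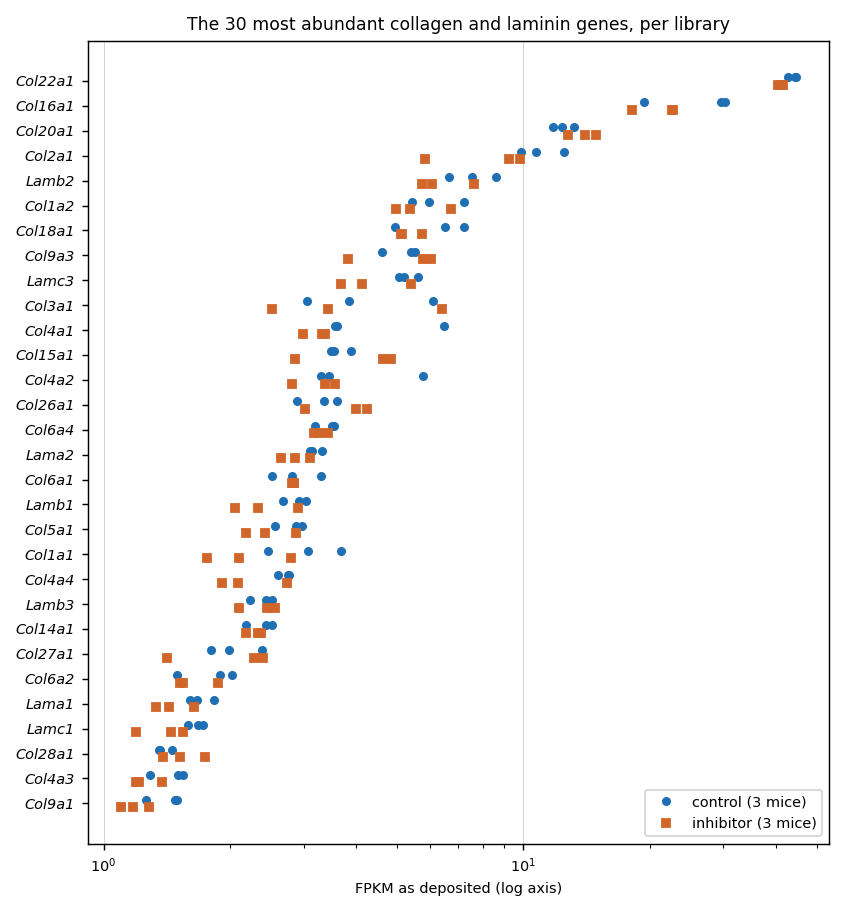
FPKM as deposited (log axis) of the 30 collagen and laminin genes with the highest mean, with 1 point per mouse, circles for the 3 controls and squares for the 3 inhibitor mice. Col22a1 lies between 40.5 and 44.6 FPKM, and the values of both groups lie close together or overlap for most genes.

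Library totals ranged from 23144295 to 43127892 fragments, and the 55 genes took 0.1019% to 0.1195% of them in controls and 0.0938% to 0.1015% in inhibitor mice. A mean of 7669 fragments per library lay behind Col22a1 and 27.7 behind Col13a1, the lowest of the genes tested. In whole tissue, fewer cells of a type and less RNA per cell cannot be told apart. By the labels each library is from its own mouse. Inhibitor mouse 3 stands apart from the other inhibitor mice: without it 2405 genes passed the test described below, against 26 with all mice. Ret, whose product the compound is meant to inhibit, had 2.17 ± 0.294 CPM in the controls against 0.579 ± 0.0858 CPM (SD, n = 3 per group; edgeR adjusted p = 0.0199). The counts are of fragments per gene, and the libraries were directional, but the strand setting of the counting is not stated, so overlapping genes may share reads. Col9a3 shares 234 exon bases with Tcfl5 on the other strand, a gene at a mean of 400 CPM, so its level is uncertain.

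No collagen or laminin gene passed the comparison of inhibitor with control mice. The test was edgeR's quasi-likelihood test over 16658 genes with Benjamini-Hochberg adjustment at 0.05, in which 26 genes (0.156%) passed, and levels are CPM, counts scaled to the TMM-normalised library size. Of the 53 genes tested, 0 passed in either direction, with a smallest adjusted p of 0.123. DESeq2 and limma-voom also called 0, with no adjusted p from DESeq2 for 20 of the genes. At an unadjusted p of 0.05 the edgeR test had 7 genes lower and 2 higher. That is 13.2% and 3.77% of those tested, against 8.48% and 9.43% of all genes, and 17.0% against 17.9% in both directions together. The direction was uneven: 42 of the 53 log2 fold changes were below 0 (79.2%, against 51% over all genes), with a median of −0.137 against −0.004. Control 2 was the highest library in 24 of the 53 genes, and inhibitor 2 the lowest in 19. The median difference of the genes from their own means, in log2 CPM, was 0.046, 0.111 and 0.006 in controls 1 to 3. It was 0.024, −0.136 and −0.080 in inhibitor mice 1 to 3, so inhibitor 1 lay above control 3. In 10 genes every inhibitor mouse was lower than every control (18.9%, against 11.9% of all genes), and in 1, Col23a1, every inhibitor mouse was higher (1.9%, against 11%).

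Of the 11 laminin genes, 10 had a log2 fold change below 0, with a median of −0.237, and 3 were lower at unadjusted p under 0.05 (8.48% of all genes were). Lama5, an alpha chain of mature epithelial and vessel basement membranes, varied little within groups. Controls had 11.4, 10.6 and 11.1 CPM, and inhibitor mice had 8.86, 9.05 and 8.85 CPM. The groups did not overlap, and the log2 fold change was −0.30 (SE 0.09, edgeR adjusted p = 0.128). Lamc1, the gamma chain shared by most laminins, had 12.7, 13.1 and 12.01 CPM in controls against 11.7, 9.01 and 10.9 CPM. These groups lay apart by a narrow margin, with inhibitor 2 lowest (log2 fold change −0.26, edgeR adjusted p = 0.231). Lama1, the alpha chain of embryonic and tubule basement membranes, was at 15.8, 17.5 and 15.3 CPM and then 13.6, 12.7 and 15.5 CPM. Here inhibitor 3 lay within the control range (−0.22, edgeR adjusted p = 0.258).

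The more abundant laminin chains divided the inhibitor mice. Lamb2 had 41.6, 47.8 and 36.8 CPM in the controls and 33.5, 31.6 and 42.1 CPM in inhibitor mice. Lamc3 had 32.7, 29.6 and 30.4 CPM, then 24.2, 21.5 and 31.3 CPM. Lamb1, the partner of embryonic and widespread laminins, had 16.5, 17.3 and 15.2 CPM, then 13.3, 11.7 and 16.5 CPM. In all 3 chains inhibitor mice 1 and 2 lay below every control, and inhibitor 3 lay within the control range. Their log2 fold changes were −0.24, −0.26 and −0.24, with edgeR adjusted p of 0.366, 0.301 and 0.3005. In Lama2, too, inhibitor mice 1 and 2 lay below every control and inhibitor 3 within their range, at 30.0, 30.6 and 32.1 CPM and then 27.7, 25.6 and 30.0 CPM (−0.15, SE 0.07). Lama3, an alpha chain of epithelial anchoring, was low, at 2.87 to 3.40 CPM in the controls and 2.02 to 2.76 CPM in inhibitor mice, without overlap (−0.37, SE 0.17). Lama4, the alpha chain of vessel walls and muscle, was at 3.60 to 4.44 and 2.58 to 4.14 CPM (−0.15, SE 0.18). Lamb3, an epithelial beta chain that partners Lama3, differed by less than its standard error (−0.01, SE 0.11).

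All 6 type IV chains had log2 fold changes below 0, between −0.51 and −0.09, and for the first pair 1 control mouse decided the value. Col4a1, which with Col4a2 forms the common type IV trimer, had 23.2, 42.4 and 23.5 CPM in the controls and 21.7, 19.5 and 21.9 CPM in inhibitor mice. Col4a2 had 21.8, 36.8 and 20.9 CPM, then 21.4, 17.8 and 22.5 CPM. Control 2 was far above the other 5 libraries in both, and those 5 lay close together. The log2 fold changes were −0.51 (SE 0.28) and −0.38 (SE 0.26) with all mice, and −0.15 and −0.05 without control 2. Col4a3 and Col4a4, which with Col4a5 form the trimer of specialised basement membranes, showed another pattern. Col4a4 was at 21.4, 21.4 and 20.1 CPM in the controls and 16.2, 14.9 and 21.1 CPM in inhibitor mice, with inhibitor 3 again within the control range (−0.27, edgeR adjusted p = 0.247). Col4a3 had 11.1, 13.3 and 12.9 CPM, then 10.2, 10.4 and 11.8 CPM (−0.20, SE 0.10). The X-linked chains Col4a5 and Col4a6 were at −0.15 (SE 0.11) and −0.09 (SE 0.14).

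**Figure D2:**
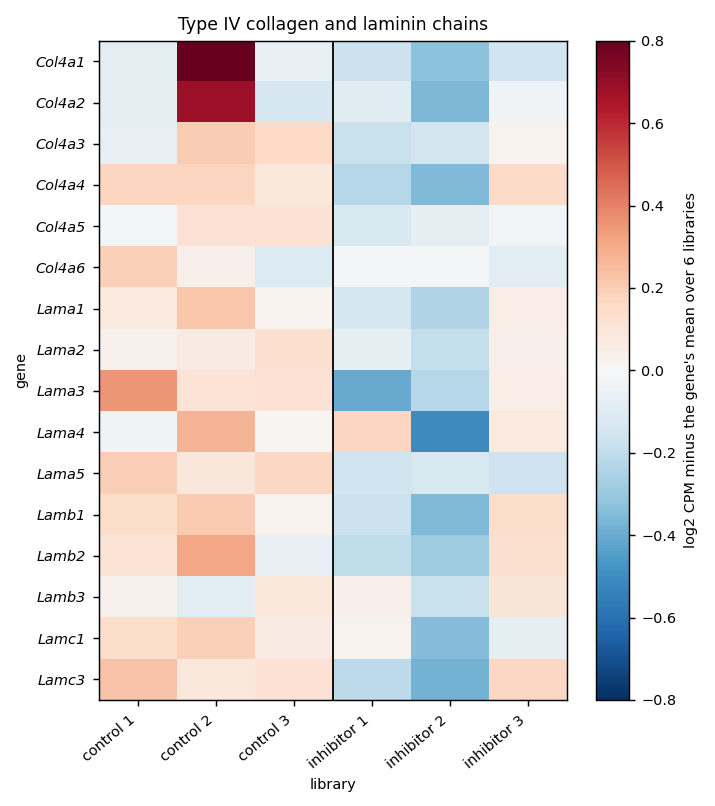
Log2 CPM of 16 type IV collagen and laminin chains in each library, as the difference from the gene's mean over the 6 libraries (colour scale, red higher and blue lower), with controls left of the line and inhibitor mice right of it. Control 2 is highest for Col4a1 and Col4a2, inhibitor 2 is lowest for most laminin chains, and inhibitor 3 resembles the controls for Lamb1, Lamb2, Lamc3 and Col4a4.

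Of the 11 fibrillar chains, 8 had a log2 fold change below 0, with a median of −0.049. Col3a1, the chain of reticular fibres, ran from 16.6 to 33.4 CPM in the controls and from 13.7 to 35.1 CPM in inhibitor mice, so that the groups covered nearly the same range (−0.08, SE 0.49). Col1a2, the second chain of type I collagen, was at 30.0, 36.6 and 27.3 CPM and then 34.0, 25.02 and 27.0 CPM (−0.13, SE 0.14). Col1a1, the first chain of type I collagen, was at 14.1, 17.0 and 11.3 CPM and then 12.8, 9.62 and 8.05 CPM. These groups overlapped, since inhibitor 1 lay above control 3 (−0.48, SE 0.20, edgeR adjusted p = 0.272, and −0.31 without control 2). Col2a1 had 51.6, 47.8 and 60.2 CPM in the controls and 44.6, 28.1 and 47.3 CPM in inhibitor mice. The groups did not overlap, by a margin of less than 1 CPM, and inhibitor 2 was far below the others (−0.40, SE 0.22, and −0.21 without inhibitor 2). Col5a1, a chain that starts fibrils, was at −0.17 (SE 0.10), and Col5a2 at 0.22 (SE 0.22).

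Among the fibril-associated collagens, Col22a1 and Col20a1 lay on opposite sides of 0. Col22a1 had 267, 270 and 258 CPM in the controls and 245, 250 and 250 CPM in inhibitor mice, without overlap and with a small difference (−0.10, SE 0.04, edgeR adjusted p = 0.275). Col20a1 had 47.8, 50.6 and 53.6 CPM, then 60.6, 57.1 and 51.9 CPM, with inhibitor 3 within the control range (0.16, SE 0.07, edgeR adjusted p = 0.265). Col12a1, which binds fibrils in tissues under tension, had 14.3, 12.7 and 15.1 CPM in the controls and 12.6, 11.3 and 10.5 CPM in inhibitor mice. These groups met without overlapping (−0.29, SE 0.10, edgeR adjusted p = 0.167). Col16a1 had 151, 155 and 98.6 CPM and then 116, 115 and 92.4 CPM, so control 3 lay below inhibitor mice 1 and 2 (−0.32, SE 0.21). Col9a3, subject to the overlap with Tcfl5, was at 14.0 ± 1.38 and 14.0 ± 3.27 CPM (SD, n = 3 per group).

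The other families gave 1 gene that stood out. Col23a1, a transmembrane collagen, had 4.65, 5.13 and 5.27 CPM in the controls and 7.47, 5.95 and 7.03 CPM in inhibitor mice. Every inhibitor mouse was above every control. It had the smallest adjusted p of the 53 genes and did not pass (0.44, SE 0.13, edgeR adjusted p = 0.123). Of the other transmembrane chains, Col17a1, of epithelial anchoring complexes, was at −0.28 (SE 0.15), Col25a1 at −0.15 (SE 0.15) and Col13a1 at −0.29 (SE 0.31). The basement membrane multiplexins differed in sign. Col18a1, whose cleaved end is endostatin, was at 32.1, 35.8 and 24.5 CPM and then 25.4, 28.3 and 25.2 CPM (−0.23, SE 0.13). Col15a1 was at 18.5, 20.4 and 18.2 CPM and then 25.3, 24.1 and 14.8 CPM, with inhibitor 3 lowest of all libraries (0.17, SE 0.20). The 6 type VI chains, which form beaded filaments around cells, had a median of −0.095, with Col6a1 at −0.03 (SE 0.11), Col6a4 at −0.05 (SE 0.07) and the low Col6a6 at −0.41 (SE 0.23). Col26a1 (0.19, SE 0.14) and Col28a1 (0.16, SE 0.13) were the highest of the remaining 5 tested collagens.

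**Figure D3:**
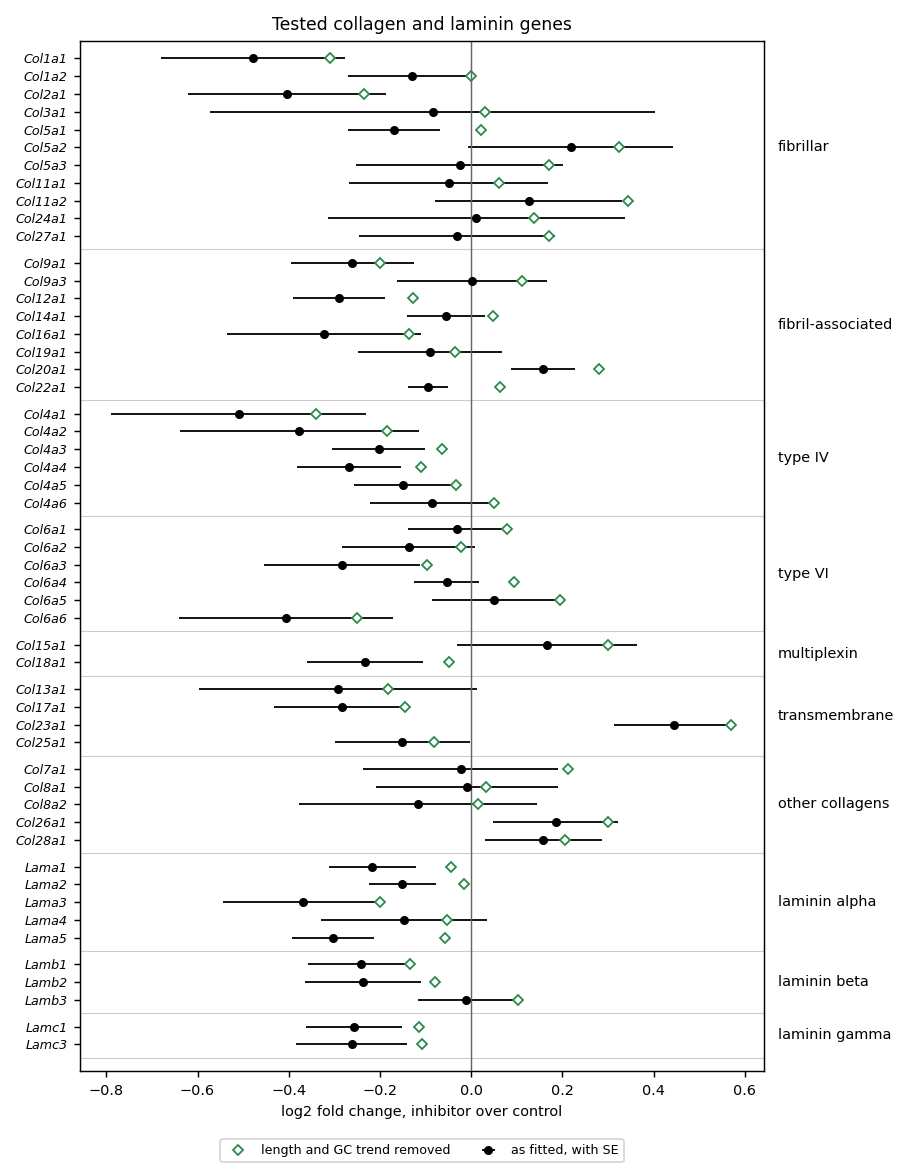
Log2 fold change (inhibitor over control, horizontal axis) of the tested genes by family, without 1 laminin gene. Filled circles with bars are the edgeR estimates with their standard errors, and open diamonds are estimates with the length and GC trend of each library removed. Most circles lie below 0, and the medians over all 53 tested genes were −0.137 as fitted and −0.016 with the trend removed.

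Without inhibitor 3, 7 of the 53 genes passed in the same edgeR test. These were Lamc3 (−0.43), Col4a4 (−0.43), Lamb1 (−0.39), Lamb2 (−0.37) and Lama1 (−0.30), which were lower, and Col15a1 (0.37) and Col20a1 (0.22), which were higher. Their adjusted p ranged from 0.00226 to 0.0408. Without that mouse 14.3% of all genes passed, 5.54% lower and 8.71% higher, against 13.2% of collagen and laminin genes. These shares are close only with both directions together. Of the 7 collagen and laminin genes 5 were lower and 2 higher, while more genes of the whole table were higher than lower. With the length and GC correction described below, chosen for this subset after the data were seen, 6 members passed (11.3%, against 6.39% of all genes). All 6 were collagens with a log2 fold change above 0. They were Col15a1, Col20a1, Col23a1, Col26a1, Col27a1 and Col9a3, whose level is uncertain through the overlap with Tcfl5. None of the 5 lower genes was among them (edgeR adjusted p from 0.0537 to 0.486). The correction moved the estimates of all 6 upward, for example that of Col27a1 from 0.17 to 0.39. The share of 6.39% counts both directions, so it does not match a count of higher genes alone. With any of the other 5 mice left out, 0 members and between 0 and 10 genes of the whole table passed. Sertoli cell markers are given beside these chains. The summed level of 11 such markers was 1320 to 1388 CPM in the controls, 1196 and 1226 CPM in inhibitor mice 1 and 2, and 1510 CPM in inhibitor 3. Inhibitor 3 lay above the control range in this marker sum, and within the control range in Lamb1, Lamb2 and Lamc3. This split was not particular to Sertoli markers. Of the lists described below, inhibitor mice 1 and 2 alone lay below every control in the summed basement membrane partners, collagen synthesis genes and matrix breakdown genes. The same held for the sums of receptors, TGF-beta genes and endothelial markers. Sums of interstitial partners and of the other marker lists did not show it. All 11 Sertoli markers were tested, 10 had a log2 fold change below 0 (median −0.077), and none was at 0 in every library. The marker Amh, with the largest fall of the list, had 2.76 ± 0.477 CPM in the controls against 1.76 ± 0.0651 CPM (SD, n = 3 per group), without overlap. Sox9 was at −0.17, Gata4 at −0.14 and Cldn11 at −0.08. These named markers were a small part of the sum, with Cldn11 the highest of them at 92.6 CPM in the controls. The summed FPKM of the laminins was 26.0 to 28.1 in controls, 23.0 and 20.8 in inhibitor mice 1 and 2, and 26.9 in inhibitor 3. The part of Sertoli cell content in these values was not tested.

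Transcript length moved with the fold changes over the whole table, and collagen and laminin transcripts are long. The longest annotated transcript had a median of 6048 nt over the 53 genes and 3168 nt over all tested genes. Over all tested genes the median log2 fold change was 0.16 for transcripts under 1000 nt, −0.06 from 5000 nt to under 7000 nt, and −0.11 for those of 7000 nt or more. Of the 53 genes, 44 have transcripts of at least 5000 nt. Among all 3428 tested genes of at least that length, 72.35% had a log2 fold change below 0 and 23.63% were lower in every inhibitor mouse. Of the 44 collagen and laminin genes of that length, 36 (81.8%) were below 0 and 10 (22.7%) were lower in every inhibitor mouse. The median log2 fold change was −0.15 for the 44 long collagen and laminin genes and −0.08 for all genes of that length.

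When a trend on length and GC content was removed from each library inside the same edgeR model, most of the difference was gone. The median of the 53 genes was −0.016, against 0.006 over all genes, and 28 of them were below 0 (48.1% of all genes were). At an unadjusted p of 0.05, 0 were lower and 2 higher, against 5.29% and 8.3% of all genes. The laminin median went from −0.237 to −0.058 and that of type IV collagen from −0.236 to −0.087. Still below 0 were 9 of the 11 laminins and 5 of the 6 type IV chains, against 19 of the 42 collagens tested. Lama5 went from −0.30 to −0.06, Lamc1 from −0.26 to −0.11, Lamc3 from −0.26 to −0.11, and Col22a1 from −0.10 to 0.06. The 2 that were higher, Col23a1 (0.57, edgeR adjusted p = 0.104) and Col20a1 (0.28, adjusted p = 0.181), did not pass over all genes, of which 13 (0.078%) did. Removal of this trend also removes any true difference that follows transcript length, and the cause of the trend was not tested.

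**Figure D4:**
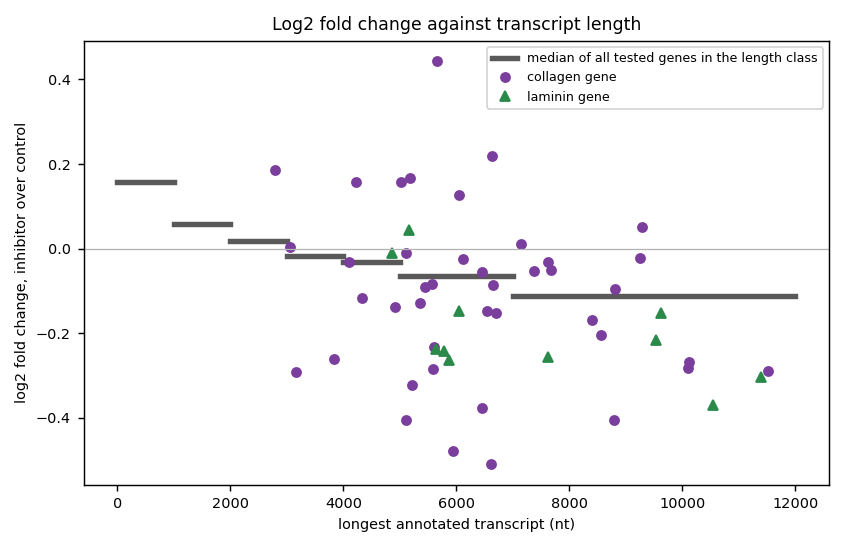
Log2 fold change (vertical axis) against the length of the longest annotated transcript (horizontal axis, nt) for 42 collagen genes (circles) and 11 laminin genes (triangles). Grey bars are medians of all tested genes in 7 length classes, which go from 0.16 under 1000 nt to −0.11 at 7000 nt or more.

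Pairs of chains were compared as ratios of FPKM within each library, so that library size cancels. The collagen pairs assemble with each other, while the laminin pairs are alternative chains of the same class. Col4a1 and Col4a2 stayed close to each other, with ratios from 0.946 to 1.118 over the 6 libraries, although both levels in control 2 were far above the rest. Col1a1 stood below Col1a2 in every library, while the type I trimer holds more Col1a1 than Col1a2 chains. That ratio was 0.516, 0.509 and 0.454 in controls and 0.414, 0.423 and 0.328 in inhibitor mice. The groups did not overlap, and an exact two-sided permutation test gave p = 0.1, the smallest that 3 against 3 mice allow, or 0.675 adjusted over the 9 ratios compared. The other 8 ratios had exact permutation p of 0.2 or more. Lamb2 stood at 2.48 to 2.84 times Lamb1 and Lama2 at 1.71 to 2.06 times Lama1. Absolute ratios between genes depend on the transcript models behind the FPKM, for which the sources used here give no annotation.

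**Figure D5:**
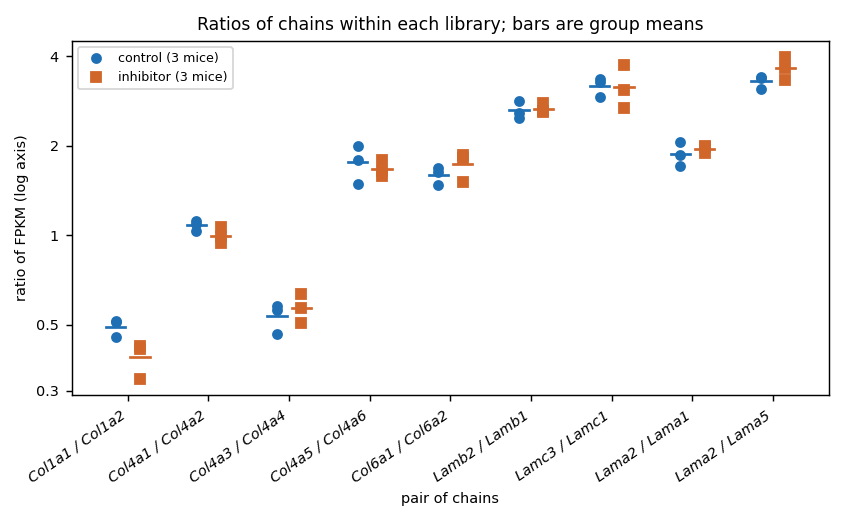
Ratio of FPKM (log axis) between 9 pairs of chains in each library, with circles for controls, squares for inhibitor mice and bars for group means of 3 mice. Col1a1 over Col1a2 is 0.454 to 0.516 in controls and 0.328 to 0.423 in inhibitor mice, and Col4a1 over Col4a2 stays between 0.946 and 1.118.

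The promoters of the genes with the smallest p in each direction are shown with the shared stretch between Col4a4 and Col4a3, a pair transcribed away from each other. The sequences are from RefSeq on GRCm38.p6, run 5′ to 3′ on the strand of the named gene and end at the base before its start site. Capitals mark the GC box, GGGCGG on either strand, where Sp1-like factors can bind. The Col4a4 stretch is the whole gap of 71 bases between the 2 genes, and the others are the 150 bases before the start.
Col23a1 (chr11:51289770-51289919, + strand): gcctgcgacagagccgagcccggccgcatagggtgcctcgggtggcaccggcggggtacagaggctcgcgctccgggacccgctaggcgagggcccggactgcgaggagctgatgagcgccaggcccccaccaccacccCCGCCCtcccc
Lama5 (chr2:180225860-180226009, − strand): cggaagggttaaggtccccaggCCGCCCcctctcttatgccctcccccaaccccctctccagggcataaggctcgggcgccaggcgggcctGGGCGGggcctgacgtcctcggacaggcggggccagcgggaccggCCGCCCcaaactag
Col4a4 (chr1:82586850-82586920, − strand): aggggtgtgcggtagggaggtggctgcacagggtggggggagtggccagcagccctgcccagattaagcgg
The Lama5 window held 3 GC boxes, the Col23a1 window 1 and the Col4a4 gap 0, and none held a CCAAT box (CCAAT) or a TATA box (TATAAA) on either strand. GC content was 73.3%, 76.7% and 69.0%. In the 250 bases before the start, 24 of 44 windows of 40 matched collagen and laminin genes (54.5%) held a GC box, against 32.7% of 32851 windows of all genes. For the CCAAT box the shares were 31.8% and 33.8%, and for the TATA box 11.4% and 12.4%. A match describes the letters and does not show that a factor binds.

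Other matrix genes were examined in 6 lists, and no gene of them passed over all genes in the edgeR test. Basement membrane partners had 16 of 17 log2 fold changes below 0, a median of −0.151, and 6 genes lower at unadjusted p under 0.05. Over all genes 51% were below 0, the median was −0.004 and 8.48% were lower at that p, and these shares serve for each list here. Nid1 and Nid2, the nidogens that link the laminin and type IV networks, were at −0.26 and −0.26, the heparan sulfate proteoglycan Hspg2 at −0.38 and the peroxidase Pxdn, which crosslinks type IV collagen, at −0.58. The 20 collagen and laminin receptors had 17 below 0, a median of −0.195 and 2 lower at that unadjusted p, among them Dag1, the laminin receptor dystroglycan (−0.25). Of 26 tested genes of collagen synthesis and crosslinking, 16 were below 0 (median −0.066), and 1, the crosslinking enzyme Loxl3 (−0.53), was lower at unadjusted p under 0.05. Interstitial matrix partners had 13 of 23 below 0 (median −0.055), with Fbn1, a microfibril gene, at −0.45 and Dcn, a proteoglycan that binds fibrils, at 0.23. Matrix breakdown and its inhibitors had 15 of 17 tested below 0 (median −0.177), with the protease genes Adamts4 at −0.92 (SE 0.31) and Mmp2 at −0.64 (SE 0.23). Both were low, with means of 1.24 and 1.72 CPM in the controls. The more abundant protease genes Adamts5 and Plat were at −0.29 and −0.18. The TGF-beta list, a pathway that induces matrix genes, had 15 of 17 below 0 (median −0.123), with Smad3 at −0.35. With the length and GC trend removed, the medians in the order given were −0.056, −0.106, −0.007, 0.023, −0.135 and −0.039, so that the interstitial list lay above 0 and matrix breakdown farthest below it.

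No marker gene of the cells that make this matrix passed over all genes in the edgeR test. Peritubular myoid markers summed to 354 to 417 CPM in the controls and 357 to 376 CPM in inhibitor mice (10 of 11 below 0, median −0.218, or −0.088 with the trend removed). Actg2, a smooth muscle actin, made up much of that sum, with 185 ± 2.69 CPM in the controls against 196 ± 2.66 CPM (SD, n = 3 per group), and was the 1 marker above 0. Mylk, a kinase of smooth muscle contraction, had 65.6 ± 4.59 against 56.5 ± 1.78 CPM. The lower Cnn1 (3.86 CPM in the controls) and Synpo2 (1.28 CPM) were at −0.46 (SE 0.22) and −0.45 (SE 0.22). Control 2, the library highest in Col4a1, Col4a2 and Col1a1, also had the highest myoid sum. This was not particular to myoid markers. Control 2 was highest in 24 of the 53 collagen and laminin genes tested, and in the Leydig sum. It was also highest in the summed basement membrane partners, interstitial partners, collagen synthesis genes, receptors and TGF-beta genes. Sums of matrix breakdown genes and of the other marker lists were highest in other libraries. Endothelial markers, of the cells that line vessels, summed to 54.4 to 58.8 CPM in the controls and 50.1, 45.2 and 56.5 CPM in inhibitor mice 1 to 3 (10 of 11 below 0, median −0.151). Erg, low at 1.45 CPM in the controls, was at −0.67 (SE 0.23), Eng at −0.34 (SE 0.14) and Vwf at −0.15 (SE 0.08). Fibroblast and interstitial stroma markers summed to 64.0 to 77.3 and 71.2 to 78.0 CPM (3 of 8 below 0, median 0.133). Leydig markers summed to 955 to 1197 and 888 to 1058 CPM, and macrophage markers to 365 to 379 and 408 to 448 CPM. Most of the macrophage sum was Aif1 (means of 319.5 and 367.6 CPM), while 7 of the 9 markers were below 0 (median −0.055). Undifferentiated spermatogonia markers, from cells that rest on the basement membrane, summed to 73.5 to 76.4 and 51.8 to 57.9 CPM. All 9 tested were below 0 (median −0.796, or −0.732 with the trend removed). Of these 3 passed as lower: Sox3, Zbtb16 and Lin28a (edgeR adjusted p of 0.0319, 0.0319 and 0.0484, where 0.156% of all genes passed). With the trend removed, Lin28a no longer passed (edgeR adjusted p = 0.0509). Epididymis markers, which would mark neighbouring tissue, summed to 28.3 to 32.1 and 26.8 to 32.2 CPM. Most of this sum was 1 gene, Eppin (means of 24.3 and 23.4 CPM), so it says little of the others. Only 4 of the 7 were tested, since Adam7, Crisp1 and Lcn8 did not pass the filter on low counts. Rnase10 had 4.07 ± 0.243 CPM in the controls and 3.19 ± 2.78 CPM in inhibitor mice (SD, n = 3 per group). No marker of these lists was at 0 in every library. The part of these cell types in the collagen and laminin values was not tested.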

How the data were processed

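RNA of 6 whole testes was sequenced from polyadenylated, directional libraries. Tools named in the submitters' processing notes are cutadapt (1.8), TopHat2 (2.0.13) and Cuffdiff (2.2.1), with build mm10; what each did, and the annotation, is not given in the sources used here. The deposited table gives expected counts of fragments per gene and library (98.8% whole within 1e-06), which were rounded, and FPKM values scaled by the authors' software. The test was that of edgeR 4.0.16 under R 4.3.3 (filterByExpr, TMM, robust quasi-likelihood F-test, two-sided, Benjamini-Hochberg at 0.05) over all 16658 genes that passed the filter. FPKM served for levels between genes and as an alternative with limma 3.58.1.

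Transcript lengths and GC content came from GENCODE M21 (GRCm38, the assembly of mm10), for 99% of tested genes. Each library's loess trend (span 0.5) on both, fitted over genes with mean log2 CPM above 1, entered the same model as an offset. Alternatives were other scalings, filters and tests (DESeq2 1.42.0, limma-voom), the mouse number as a block, and each mouse left out. The procedure was tested on simulated data without an outlying mouse, unlike these data. There 6 of 191 edgeR calls were false without a length and GC trend. With the trend added, 99 of 283 were false when it was left in, and 7 of 194 when it was removed. The members, lists and tests were chosen with earlier results of these data known, and the length classes, chain ratios and sequence windows after the values were seen. All 203 list symbols matched, by current or older name. Named members were the 15 with the highest mean FPKM, those at unadjusted p up to 0.05, and the type I, type IV and laminin chains, and from each other list up to 4 genes with the smallest p. Further members were named after their values were seen. Values of 1 laminin gene are not reported here singly, though it stayed in all counts and fits.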

Additional observations from a re-analysis of the deposited data

How the results depend on the processing

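With all 6 mice, 0 collagen and laminin genes passed under every scaling, filter, test and correction tried, and their median log2 fold change stayed below 0. Genes called over the whole table, 26 as reported (16 lower, 10 higher), were 27 with library totals alone (23 lower, 4 higher), 115 without the low-count filter, 10 with at least 50 counts in 3 libraries, 533 with DESeq2, 14 with limma-voom, and 0 and 1 with limma on log2(FPKM + 1) and log2(FPKM + 0.1). Collagen and laminin genes at unadjusted p up to 0.05, 7 lower and 2 higher as reported, were 12 and 1 with library totals, 7 and 1 with the 50-count filter, and 2 and 1 and then 1 and 1 with the 2 FPKM settings. The median was −0.061 on log2(FPKM + 1). After removal of the length and GC trend, 13 genes passed in all, 0 members were lower at unadjusted p, and the median was −0.016. Col22a1 was then at 0.06, Col3a1 at 0.03, Col4a6 at 0.05, Col6a4 at 0.09 and Lamb3 at 0.10. The mouse numbers do not pair the samples (correlations of same-numbered deviations of 0.062, −0.116 and −0.02). With the number as a replicate block, 5 genes passed in all, and 9 members were lower and 1 higher at unadjusted p. With the block and the trend removal together, 2 genes passed, 3 members were lower, the median was −0.019, and Col22a1 (0.06), Col4a6 (0.05), Col6a4 (0.09) and Lamb3 (0.09) were above 0. Col9a3, near 0 as reported, was at −0.03 with library totals and limma-voom and −0.01 with the block and both FPKM settings, and Lamb3 was at 0.00 with limma-voom. Leaving out 1 mouse at a time gave 0 to 2405 genes called, 0 to 7 members called, 2 to 12 lower and 1 to 4 higher members, and medians from −0.190 to −0.096. It moved Col1a2 between −0.27 and 0.01, Col3a1 between −0.57 and 0.27, Col9a3 between −0.11 and 0.19, Lama4 between −0.27 and 0.02, and Lamb3 between −0.07 and 0.07. The 2405 genes and 7 members were called without inhibitor 3. With that mouse out and the trend removed, a setting added after the data were seen, 6 members (11.3%) and 1078 genes in all (6.39%) passed in either direction. The 6 were all higher: Col15a1 (0.53), Col20a1 (0.37), Col23a1 (0.58), Col26a1 (0.46), Col27a1 (0.39) and Col9a3 (0.32). Lamc3 (−0.25), Col4a4 (−0.26) and Lamb1 did not pass. The cause of these differences was not tested. The standard error over members ran from 0.043 to 0.488, with a median of 0.146. Low genes such as Col13a1 had wide ones (0.31 at a mean of 27.7 fragments per library). The largest, however, was that of Col3a1, at a mean of 718 fragments and with a wide range between mice.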
